A study of Homo sapiens with 12 samples.

Results

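The genes described here are 7 members of the tumour necrosis factor (TNF) receptor family, namely osteoprotegerin (TNFRSF11B), TNFRSF1A, TNFRSF12A, TNFRSF19, TNFRSF21, TNFRSF10A and TNFRSF10D. They were taken by gene name from expression tables of 2 human cancer cell lines, and they are 7 of the 19423 genes listed in each table. The choice was made knowing that TNFRSF11B was far higher in one group of A375 cells, so every A375 difference of these 7 genes is given as a description without a test. The 253J differences of the same genes were tested.

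The study sorted A375, a line labelled as human skin melanoma, and 253J, a line labelled as transitional cell carcinoma of the bladder, by how readily the cells took up fluorescent beads of 2.4 µm. Cells were grown for 5 generations and left with beads for 24 h, after which a flow sorter separated cells holding at least 1 bead (positive) from cells holding none (negative). Each branch went through 5 rounds of sorting, and both branches of a line descend from the same parental culture and met the beads in every round. The groups are therefore A375 positive, A375 negative, 253J positive and 253J negative, with 3 poly(A) RNA-seq libraries each. The labels do not say if the libraries of one branch are separate cultures, so a p-value may measure technical spread alone, and a difference linked to bead uptake and one that arose by itself in a sorted branch cannot be told apart.

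Members of the TNF receptor family bind trimeric ligands of the TNF family through cysteine-rich repeats outside the cell. Some carry a death domain inside the cell, which recruits adaptors that lead to NF-kB activation or to caspases, while others recruit TRAF adaptors directly. Decoy receptors bind a ligand without passing on the signal. Osteoprotegerin is a secreted decoy, best known for holding RANKL away from its receptor RANK and so restraining the formation of bone-resorbing osteoclasts, and it also binds the death ligand TRAIL.

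Levels are normalized read counts, that is reads divided by a size factor for each library, which were scaled within each line and not between lines. The libraries held 14576506 to 17916519 reads in genes. Log2 fold changes subtract the negative from the positive mean of log2(normalized count + 1), with the standard error (SE) of a limma fit, and means are given ± SD over n = 3 libraries. The labels also number the samples, and these numbers fall into a set of at most 12 (A375 positive replicates 1 and 2, A375 negative replicate 1, and replicates 1 and 2 of both 253J branches) and a set of at least 19 (the other 5 libraries). Between 2 libraries of one branch the chi-square of the reads, divided by its degrees of freedom, was 1.24 to 1.57 within a number set and 6.56 to 15.5 across sets, so values within the sets are given beside the results they touch. The melanocyte markers summed to 10343 to 13868 in A375 positive and 13028 to 25314 in A375 negative libraries, against 1238 to 1279 in 253J positive and 1217 to 1284 in 253J negative ones. Epithelial markers summed to 35398 to 37269 in 253J positive and 32214 to 38812 in 253J negative libraries, against 972 to 1061 in A375 positive and 1193 to 1276 in A375 negative ones. The 5 measured leukocyte markers summed to at most 43.1 in any library.

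Osteoprotegerin differed more than any other of the 7 genes between the A375 branches. TNFRSF11B (ENSG00000164761; GRCh38 chromosome 8, 118923557 to 118952200, minus strand) had 87.2, 114.5 and 65.9 normalized counts in A375 positive replicates 1 to 3, against 3, 3 and 1 in A375 negative replicates 1 to 3. Every positive library lay more than an order of magnitude above every negative one. The means were 89.2 ± 24.4 in positive and 2.33 ± 1.15 in negative cells, and the log2 fold change was 4.79 ± 0.35 (SE), a 27.7-fold difference on that scale. Of 14118 genes tested in A375, 4 (0.0283%) had a log2 fold change of at least 4, and TNFRSF11B ranked as number 3 by this measure. The gene was chosen with this difference known, so its rank is a description and no evidence for the difference. Only its positive libraries, at a mean of 89.2, brought it above the mean of 10 required of a tested gene. The difference was 4.66 within the low number set and 4.56 within the high one.

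The negative level of TNFRSF11B rests on few reads. The 3 positive libraries together held 270 reads of the gene and the 3 negative ones held 7, a ratio of 38.4 after scaling (95% exact interval 18.4 to 96.4, which covers counting error only). With a pseudocount of 5 in place of 1 the log2 fold change was 3.66. The libraries are bulk samples, so more expressing cells and more RNA per expressing cell cannot be told apart.

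In 253J the same gene was abundant in both branches. TNFRSF11B had 1722.6, 1697.3 and 2145.4 normalized counts in 253J positive libraries, against 1598.5, 1597.4 and 2141.2 in 253J negative libraries. Replicate 3 was the highest library of each branch, and the groups overlapped. The means were 1855 ± 252 in positive and 1779 ± 314 in negative cells, with a log2 fold change of 0.07 ± 0.13 (SE; limma adjusted p = 0.869). Its transcripts stood at 133 ± 18 TPM (reads per exon length, scaled to 1 total per library) in 253J positive and 123 ± 20 TPM in 253J negative cells, against 6.60 ± 1.8 TPM in A375 positive and 0.173 ± 0.085 TPM in A375 negative cells. Leaving out single libraries moved the 253J log2 fold change between -0.04 and 0.21.

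**Figure D1:**
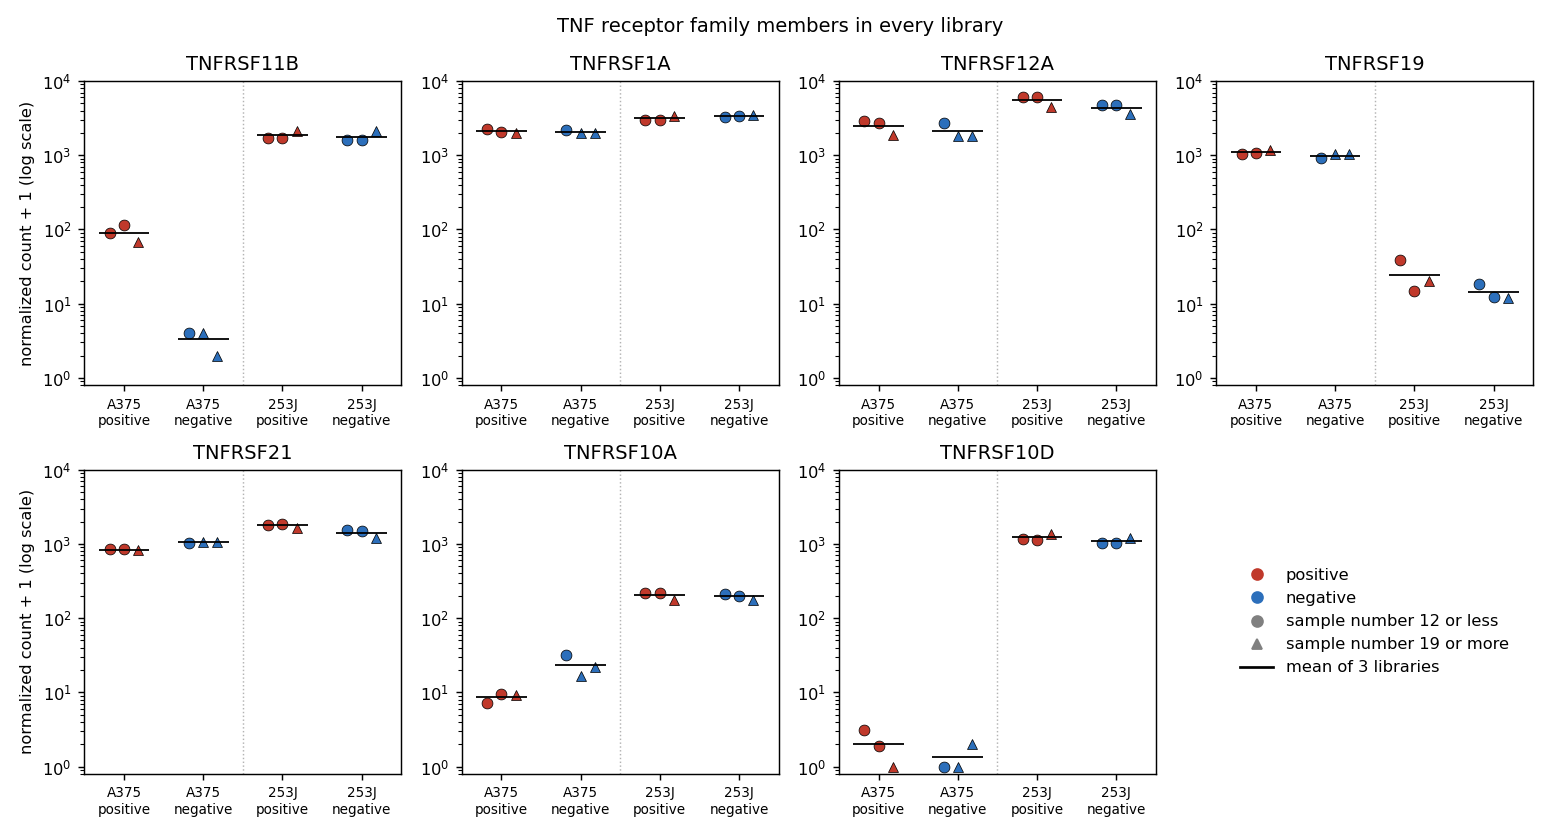
Normalized count plus 1 (log axis) of the 7 receptor genes in each of the 12 libraries, with positive libraries in red left of negative libraries in blue for each line, circles for sample numbers of at most 12, triangles for numbers of at least 19 and a bar at the mean of 3 libraries. TNFRSF11B runs from 65.9 to 114.5 in A375 positive libraries and from 1 to 3 in A375 negative libraries before the 1 is added, while its 253J groups overlap.

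Among the 7 members, 2 belong to the group of receptors for TRAIL, the ligand TNFSF10, whose genes lie together on the short arm of chromosome 8. These genes are similar in sequence, and the sources used here do not say how reads shared between them were counted, so their counts carry that uncertainty. TNFRSF10A (DR4; chromosome 8, 23190452 to 23225126, minus strand) carries a death domain and passes on the TRAIL signal. It had 6.2, 8.5 and 8.1 normalized counts in A375 positive libraries, against 30.9, 15.8 and 20.9 in A375 negative ones. All positive libraries lay below all negative ones, at low levels throughout. The means were 7.60 ± 1.23 and 22.5 ± 7.68, with a log2 fold change of -1.41 ± 0.31 (SE), from 23 reads in positive and 68 in negative libraries. The difference was -1.95 within the low and -1.08 within the high number set.

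In 253J, TNFRSF10A had 217.1, 220.3 and 172.5 normalized counts in positive and 210, 200.4 and 175.6 in negative libraries. The groups overlapped and the log2 fold change of 0.05 ± 0.12 (SE) did not pass the test (limma adjusted p = 0.893). Of the exonic bases of TNFRSF10A, 16.6% are overlapped by other annotated genes, and whether the counting used strand is not stated in the sources used here. Larger shares are overlapped in other genes named below, such as TNFRSF10C (39.3%), TNFSF12 (33.2%), ACTA2 (30.1%), NGFR (27.1%), IER3 (26.5%) and TRAF7 (21.2%).

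TNFRSF10D (DcR2; chromosome 8, 23135588 to 23164030, minus strand) is a decoy for TRAIL with a truncated death domain. In A375 it was barely detected, with 2.1, 0.9 and 0 normalized counts in positive and 0, 0 and 1 in negative libraries. These values come from 3 reads against 1 read in all, so it was left out of the fit there and no fold is given. In 253J it had 1174.1, 1143.8 and 1347.7 normalized counts in positive libraries, against 1015.5, 1042.7 and 1205.1 in negative ones. The ranges overlapped, although each positive library was above the negative library of the same number. The means were 1222 ± 110 and 1088 ± 103, with a log2 fold change of 0.17 ± 0.09 (SE; limma adjusted p = 0.460, and 0.0282 with the replicate number as a block). With libraries of the same branch and number set averaged, the difference did not pass (limma adjusted p = 0.928).

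The ligand of this group was near 0 in A375 and abundant in 253J. TNFSF10 averaged 1.30 ± 0.52 normalized counts in A375 positive and 1.00 ± 1.00 in A375 negative cells, against 1500 ± 93.6 in 253J positive and 1607 ± 181 in 253J negative cells. TNFRSF10B (DR5), the other TRAIL receptor with a working death domain, rose in A375 positive cells to 2380 ± 23.1, against 2091 ± 25.8 in negative cells (log2 fold change 0.19 ± 0.04, limma adjusted p = 0.0379). Leaving out either of positive replicates 1 and 2 or either of negative replicates 2 and 3 ended that call (adjusted p 0.126 to 0.152). In 253J, TNFRSF10B averaged 2940 ± 6.22 in positive and 2706 ± 82.3 in negative cells. Those branches did not overlap, and the difference did not pass by limma (adjusted p = 0.355) but passed when the number set was the block (0.0253). The decoy TNFRSF10C (DcR1), held to the membrane by a lipid anchor, averaged 92.9 ± 6.81 in A375 positive and 101 ± 10.2 in A375 negative cells (limma adjusted p = 0.635).

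TNFRSF1A (TNFR1; chromosome 12, 6328757 to 6342114, minus strand) is the death domain receptor through which most cells sense TNF. It had 2260, 2072.7 and 2014.7 normalized counts in A375 positive libraries, against 2216.2, 2015.9 and 1970.9 in A375 negative ones. The ranges overlapped almost wholly, and the log2 fold change was 0.03 ± 0.07 (SE), with its sign turned (-0.034) within the low number set. In 253J it had 3014.3, 2980.3 and 3403.8 normalized counts in positive libraries, against 3309.6, 3358.4 and 3531.9 in negative ones. The 253J groups overlapped through positive replicate 3, and the means were 3133 ± 235 in positive and 3400 ± 117 in negative cells. The log2 fold change of -0.12 ± 0.07 (SE) did not pass the test (limma adjusted p = 0.481), nor with the replicate number as a block (0.0662), but passed when the number set was the block (0.0256). With libraries of the same branch and number set averaged, it did not pass (limma adjusted p = 0.941).

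TNFRSF21 (DR6; chromosome 6, 47231532 to 47309905, minus strand), a death domain receptor studied mostly in neurons and lymphocytes, lay in opposite directions in the lines. It had 850.2, 842.9 and 821.9 normalized counts in A375 positive libraries, against 1042.3, 1065.3 and 1051.1 in A375 negative libraries. The 3 libraries of each A375 branch were close together and the branches did not overlap. The means were 838 ± 14.7 and 1053 ± 11.6, with a log2 fold change of -0.33 ± 0.05 (SE). In 253J it had 1824.2, 1881.8 and 1644 normalized counts in positive libraries, against 1542.6, 1482.3 and 1215.1 in negative ones. Here all positive libraries lay above all negative ones, with means of 1783 ± 124 and 1413 ± 174. The 253J log2 fold change of 0.34 ± 0.10 (SE) did not pass (limma adjusted p = 0.161) and passed with the replicate number as a block (4.80e-04) or the number set as a block (1.06e-05). With libraries of the same branch and number set averaged, that difference did not pass (limma adjusted p = 0.787). The A375 difference was -0.30 within the low and -0.36 within the high number set, and the 253J difference was 0.29 and 0.44.

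TNFRSF12A (Fn14; chromosome 16, 3018445 to 3022383, plus strand) is the receptor for the cytokine TWEAK (TNFSF12) and recruits TRAF adaptors without a death domain. It had 2888.1, 2715 and 1875.8 normalized counts in A375 positive libraries, against 2753.8, 1823 and 1843.5 in A375 negative ones. The A375 libraries with low sample numbers were the high ones in both branches, and the groups overlapped. Its log2 fold change of 0.22 ± 0.20 (SE) shrank to 0.02 within the low and 0.03 within the high number set, while the high set minus the low set came to -0.58 ± 0.04 on the log2 scale.

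In 253J, TNFRSF12A had 6090.6, 6120.9 and 4412.5 normalized counts in positive libraries, against 4771.3, 4703.5 and 3614.2 in negative libraries. Replicate 3 was the lowest of each 253J branch, and each positive library exceeded the negative library of the same number. The means were 5541 ± 978 and 4363 ± 649, with a log2 fold change of 0.34 ± 0.15 (SE; limma adjusted p = 0.356). With the replicate number as a block the same difference passed at 1.00e-04, as it did at 5.81e-07 when the number set was the block. It did not pass (limma adjusted p = 0.925) with libraries of the same branch and number set averaged. It was 0.37 within the low and 0.29 within the high number set. The ligand TNFSF12 averaged 9.67 ± 1.02 in A375 positive and 13.2 ± 2.42 in A375 negative cells, and 0.333 ± 0.577 in both 253J branches.

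TNFRSF19 (TROY; chromosome 13, 23570370 to 23676104, plus strand) lacks a death domain and is known for its expression in the developing nervous system and in hair follicles. It had 1052.7, 1081.3 and 1189.7 normalized counts in A375 positive libraries, against 905.6, 1024.8 and 1025.3 in A375 negative ones. The lowest positive library lay just above the highest negative one, and the means were 1108 ± 72.3 and 985 ± 69.0. The log2 fold change was 0.17 ± 0.08 (SE), and 0.24 and 0.21 within the low and high number set. In 253J the gene was low, with 37.4, 13.7 and 19.3 normalized counts in positive and 17.3, 11.4 and 11 in negative libraries. Those groups overlapped, positive replicate 1 was the highest, and the log2 fold change of 0.69 ± 0.37 (SE) did not pass the test (limma adjusted p = 0.468).

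**Figure D2:**
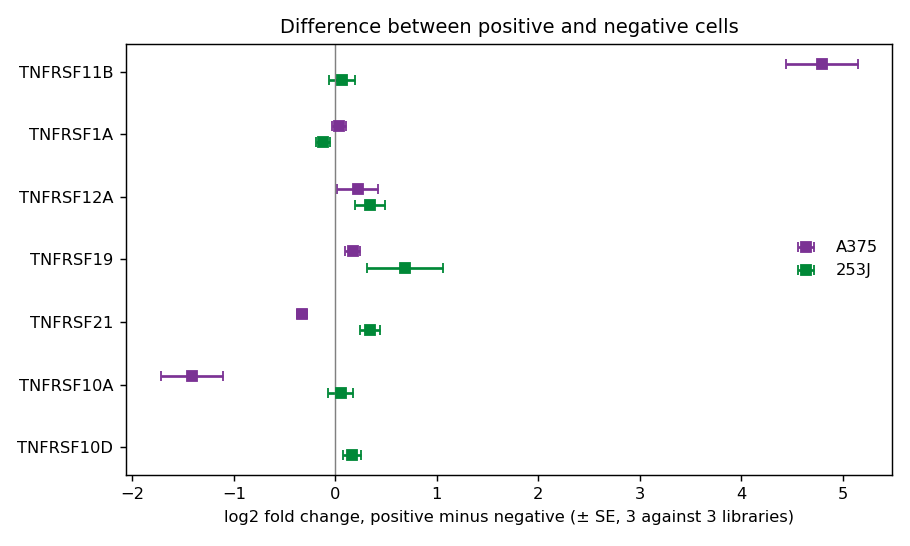
Log2 fold change of positive minus negative cells, with its standard error, for the 7 receptor genes in A375 (purple) and 253J (green), 3 against 3 libraries each. TNFRSF11B stands alone at 4.79 in A375, TNFRSF21 lies at -0.33 in A375 and 0.34 in 253J, and TNFRSF10D has no A375 value because its mean there was under 10.

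Of the 6 members with a mean of at least 10 normalized counts in A375, 4 had branches that did not overlap. TNFRSF11B and TNFRSF19 were higher and TNFRSF21 and TNFRSF10A lower in positive cells. The members were chosen with A375 values known, so this count is a description without a test. TNFRSF11B reached the mean of 10 only through its positive libraries. TNFRSF10A reached it only through its negative ones (mean 22.5, against 7.60 in positive libraries). Over all 14118 genes tested in A375, 29.5% did not overlap and 10.2% passed the test at an adjusted p of 0.05. In 253J none of the 7 passed by limma, edgeR or DESeq2, where limma called 1.09% of the 14189 genes tested. An unadjusted limma p was under 0.05 for 2 of the 7. The share of all genes under that unadjusted threshold is not given, for these or for the lists below. With the replicate number as a block 3 of the 7 were called, TNFRSF12A, TNFRSF21 and TNFRSF10D, all higher in positive cells, where 14% of all genes tested were called. With the number set as the block the same 3 were called and TNFRSF1A was lower in positive cells, where 18.6% of all genes were called. The median log2 fold change of the 7 in 253J was 0.17, against 0.00 over all genes tested there. TNFRSF21 was 1 of the 7 whose 253J branches did not overlap, against 20.2% of all genes tested.

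Per transcript length, TNFRSF12A was the most abundant receptor of the family in all 4 groups. It had 282 ± 59 TPM in A375 positive cells and 245 ± 62 TPM in A375 negative cells, and at 608 ± 110 TPM in 253J positive and 462 ± 75 TPM in 253J negative cells. In A375 positive cells LTBR (127 ± 10 TPM), the lymphotoxin beta receptor, and TNFRSF1A (110 ± 5.5 TPM) came next, with ranges of 1 SD that nearly touched. TNFRSF10B (96.5 ± 1.2 TPM), TNFRSF21 (48.7 ± 0.63 TPM) and TNFRSF19 (45.3 ± 3.3 TPM) followed, with TNFRSF21 and TNFRSF19 within about 1 SD of each other and in the other order (37.2 and 41.3 TPM) by the length of the longest transcript. TNFRSF11B, TNFRSF10A and TNFRSF10D were at 6.60, 0.540 and 0.0591 TPM in A375 positive cells, against 0.173, 1.62 and 0.0200 TPM in A375 negative cells. In 253J positive cells TNFRSF1A (159 ± 12 TPM) and TNFRSF11B (133 ± 18 TPM) came after TNFRSF12A, then TNFRSF10B (116 ± 0.28 TPM) and TNFRSF21 (101 ± 7.2 TPM), and TNFRSF10D stood at 70.0 ± 6.1 TPM.

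The lines also differed in which receptors they held at all. RANK (TNFRSF11A), the receptor from which osteoprotegerin withholds RANKL, averaged 7.63 ± 2.15 normalized counts in A375 positive and 7.63 ± 4.46 in A375 negative cells. In 253J it averaged 1427 ± 25.3 in positive and 1360 ± 105 in negative cells (log2 fold change 0.07, limma adjusted p = 0.699). CD40, which serves antigen-presenting cells and many epithelia, averaged 781 ± 36.2 in 253J positive and 746 ± 72.9 in 253J negative cells, and 5.27 ± 1.89 in A375 positive and 2.33 ± 2.08 in A375 negative cells. TNFRSF14 (HVEM) was the reverse, with 508 ± 128 in A375 positive cells, 674 ± 232 in A375 negative cells, and below 1 on average in both 253J branches.

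The decoy receptors TNFRSF11B, TNFRSF10C and TNFRSF10D made up 2.21 ± 0.24% of the summed TPM of the 23 measured receptors in A375 positive and 1.61 ± 0.29% in A375 negative cells. In 253J their share was 13.7 ± 2.53% in positive and 14.4 ± 2.83% in negative cells. TNFRSF11B alone was 0.845 ± 0.178% of the family's TPM in A375 positive and 0.0235 ± 0.011% in A375 negative cells. Receptors with a death domain held 35.2 ± 2.30% in A375 positive and 37.3 ± 1.85% in A375 negative cells, and 30.4 ± 1.38% in 253J positive and 32.8 ± 0.11% in 253J negative cells. The shares include the 7 members, and no test was made on them.

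**Figure D3:**
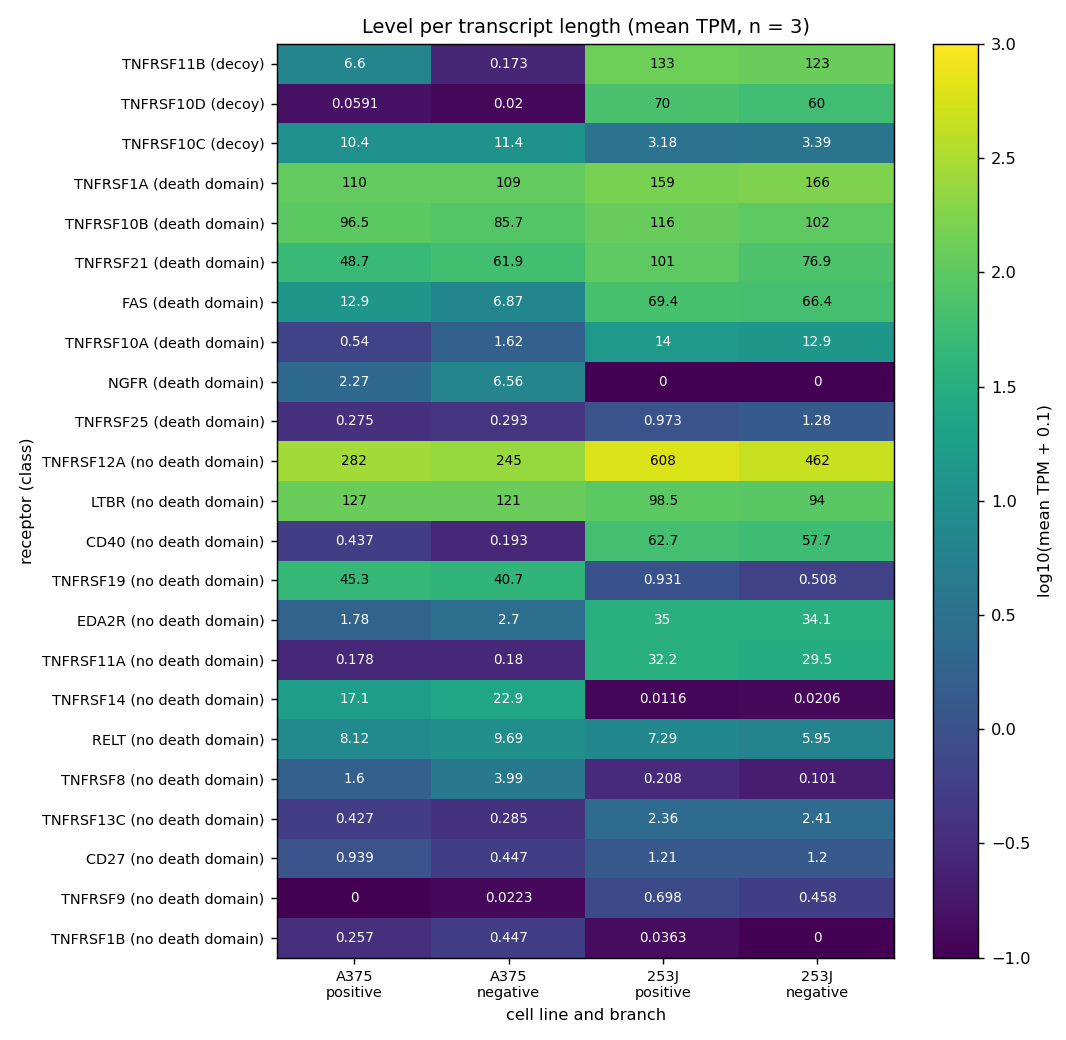
Mean level per transcript length (TPM, printed in each cell and coloured on a log10 scale of TPM + 0.1) of the 23 measured TNF receptor family genes in the 4 groups of 3 libraries, grouped by decoy, death domain and no death domain. TNFRSF12A is the highest row in every group, and TNFRSF11B has 6.60 TPM in A375 positive cells and 0.173 TPM in A375 negative cells.

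Of the 9 further receptors tested in A375, 1 rose and 2 fell in positive cells, where 4.99% of all genes rose and 5.26% fell. Besides TNFRSF10B these were NGFR, the low-affinity neurotrophin receptor, at 45.1 ± 5.45 in positive and 129 ± 35.6 in negative cells (log2 fold change -1.47 ± 0.20, limma adjusted p = 0.00549), and TNFRSF8 (CD30), at 28.7 ± 2.87 and 70.5 ± 7.23 (-1.27 ± 0.16, limma adjusted p = 0.00392). The median log2 fold change of these 9 receptors was -0.23, against 0.00 over all genes tested. FAS, the receptor of the death ligand FASLG, averaged 264 ± 83.4 in positive and 138 ± 54.9 in negative A375 cells. It did not pass by limma (log2 fold change 0.94 ± 0.32, adjusted p = 0.114) but did by DESeq2 (0.0193). DESeq2 called 4 of the 9, and 1463 of the 14118 genes tested in A375. The FAS log2 fold change was 0.63 within the low and 0.65 within the high number set, and FAS passed when the number set was the block (6.91e-06). That block called 4523 genes (32%) in A375, against 53 when libraries of the same branch and set were averaged. LTBR averaged 3831 ± 334 in positive and 3589 ± 164 in negative A375 cells (limma adjusted p = 0.499), and RELT averaged 246 ± 41.6 and 290 ± 59.3 (0.456, and 5.69e-04 when the number set was the block). In 253J none of 11 further receptors passed by limma, edgeR or DESeq2, and 1 had an unadjusted limma p under 0.05.

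Of the 4 ligands of the family tested in A375, 2 rose in positive cells, where 4.99% of all genes rose. TNFSF9 (4-1BB ligand), which stimulates T cells through TNFRSF9, averaged 246 ± 31.7 in positive and 151 ± 3.85 in negative cells (log2 fold change 0.69 ± 0.11, limma adjusted p = 0.00872). CD70, the ligand of CD27, averaged 157 ± 17.4 and 104 ± 3.17 (0.58 ± 0.11, limma adjusted p = 0.0190). The CD70 call ended without either of positive replicates 1 and 2 or of negative replicates 2 and 3, with adjusted p between 0.0556 and 0.0733. In 253J CD70 averaged 932.5 ± 108 in positive and 1120 ± 114 in negative cells (limma adjusted p = 0.313, and 0.00243 with the replicate number as a block). None of 6 ligands passed in 253J by limma, edgeR or DESeq2, and 2 had an unadjusted limma p under 0.05. With the replicate number as a block 1 rose and 1 fell, where 14% of all genes were called. TNF and TNFSF11, which encodes RANKL, were not analysed here.

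Inside the cell, 2 of 27 adaptors and ubiquitin regulators rose in A375 positive cells and none fell by limma, a share near the 4.99% of all genes that rose. When the number set was the block, 3 of the 27 rose and 4 fell, where 32% of all genes were called. MAP3K5 (ASK1), a kinase upstream of JNK and p38, averaged 151 ± 15.7 in positive and 94.8 ± 5.10 in negative cells (log2 fold change 0.66 ± 0.12, limma adjusted p = 0.0140), and TRAF7 averaged 2954 ± 120 and 2523 ± 34.6 (0.23 ± 0.05, limma adjusted p = 0.0280). MAP3K5 lost its call without replicate 2 of either branch or replicate 3 of the negative one (adjusted p 0.0544 to 0.0736), and TRAF7 without either of positive replicates 1 and 2 or of negative replicates 2 and 3 (0.101 to 0.119). Of 17 genes of death execution, 1 fell, near the 5.26% of all genes, and with that block 3 rose and 2 fell. The gene called without a block was the apoptosis inhibitor BCL2, at 225 ± 9.05 in positive and 300 ± 22.4 in negative cells (-0.41 ± 0.09, limma adjusted p = 0.0271). The BCL2 call ended without replicate 2 of either branch or replicate 1 of the positive one (adjusted p 0.0783 to 0.116). In 253J none of the 27 adaptors and none of the 17 death genes passed by limma, edgeR or DESeq2, where 3 and 1 of them had an unadjusted limma p under 0.05. With the replicate number as a block, 3 adaptors rose and 1 fell, and 2 death genes rose and none fell. That block called 14% of all genes tested in 253J.

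NF-kB is the main transcriptional route below these receptors. Of 11 core genes 1 fell in A375 positive cells, NFKB1, which encodes the p105 precursor of p50, where 5.26% of all genes fell. When the number set was the block 4 of the 11 fell, where 32% of all genes were called. NFKB1 stood at 1181 ± 19.1 in positive and 1412 ± 70.6 in negative cells (log2 fold change -0.26 ± 0.06, limma adjusted p = 0.0292). Of 9 targets of NF-kB 2 fell in A375 positive cells, IER3 (1846 ± 159 in positive and 2503 ± 185 in negative cells, limma adjusted p = 0.0144) and TNFAIP2 (83.9 ± 8.47 and 126 ± 10.6, limma adjusted p = 0.0271). NFKB1 lost its call without replicate 2 of either branch or replicate 1 of the positive one (adjusted p 0.101 to 0.125), and IER3 and TNFAIP2 lost theirs without those libraries or negative replicate 3 (0.0549 to 0.0708 and 0.0889 to 0.115). The feedback inhibitor NFKBIA averaged 247 ± 13.5 in positive and 245 ± 17.0 in negative A375 cells, and TNFAIP3 (A20) averaged 491 ± 106 and 598 ± 255, neither of which passed (limma adjusted p = 0.941 and 0.777). TNFAIP3 stood at 0.49 within the low number set and at -0.28 within the high one.

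In 253J, 2 of 15 NF-kB targets rose in positive cells by limma and by edgeR and none fell by limma, where 0.529% of all genes rose by limma. DESeq2 called 5 of the 15, and 301 of the 14189 genes tested in 253J. Both genes called by limma encode chemokines that draw neutrophils. CXCL8 averaged 2689 ± 462 in positive and 1260 ± 269 in negative cells (log2 fold change 1.10 ± 0.17, limma adjusted p = 0.0223), and CXCL2 averaged 523 ± 48.7 and 374 ± 14.8 (0.48 ± 0.09, limma adjusted p = 0.0376). The median log2 fold change of the 15 targets was 0.37, against 0.00 over all genes tested. With the replicate number as a block 8 rose and 1 fell, where 14% of all genes were called. CXCL8 lost its call when 253J positive replicate 1, positive replicate 2 or negative replicate 2 was left out (0.0607 to 0.151 by limma), and CXCL2 without any one library except negative replicate 3 (0.0574 to 0.190). None of the 11 core NF-kB genes passed in 253J by limma, edgeR or DESeq2, and 0 had an unadjusted limma p under 0.05. BIRC3 (cIAP2), both an adaptor and a target of NF-kB, lay at 1436 to 2161 in 253J positive and 1856 to 2072 in 253J negative libraries (limma adjusted p = 0.779).

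Receptors of this family can be cut from the cell surface by ADAM proteases. Of 7 shedding genes 2 fell in A375 positive cells, where 5.26% of all genes fell. They were the protease ADAM10 (2532 ± 33.8 in positive and 2953 ± 97.4 in negative cells, log2 fold change -0.22 ± 0.05, limma adjusted p = 0.0267) and FRMD8, a partner of the iRhom proteins that carry ADAM17 (829 ± 51.6 and 1110 ± 88.4, limma adjusted p = 0.0153). ADAM10 lost its call without either of positive replicates 1 and 2 or of negative replicates 2 and 3 (adjusted p 0.0986 to 0.121) and FRMD8 lost it without replicate 2 of either branch (0.0743 without the positive and 0.0501 without the negative one). ADAM17, which sheds TNFRSF1A, averaged 487 ± 3.39 in positive and 477 ± 7.05 in negative A375 cells (limma adjusted p = 0.806). In 253J none of the 7 passed by limma, edgeR or DESeq2, and 0 had an unadjusted limma p under 0.05.

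Of 12 genes of bone formation and the RANK axis 1 fell in A375 positive cells, where 5.26% of all genes fell. When the number set was the block 5 rose and 3 fell, where 32% of all genes were called. The gene called without a block was LEF1, a transcription factor of Wnt signalling (1296 ± 118 in positive and 1613 ± 32.8 in negative cells, log2 fold change -0.32 ± 0.07, limma adjusted p = 0.0299). Leaving out positive replicate 2 or either of negative replicates 2 and 3 ended the LEF1 call (0.110 to 0.129 by limma). In 253J 1 of 12 fell, where 0.564% of all genes fell. With the replicate number as a block 2 fell, where 14% of all genes were called. The gene called without that block was RUNX2, the osteoblast transcription factor, at 105 ± 6.87 in positive and 176 ± 12.7 in negative cells (-0.74 ± 0.11, limma adjusted p = 0.0181). RUNX2 lost that call without any one library except negative replicate 3 (adjusted p 0.0522 to 0.113). In A375 RUNX2 averaged 116 ± 28.8 in positive and 72.2 ± 11.2 in negative cells. Those branches did not overlap, and the difference did not pass by limma (adjusted p = 0.0815) but passed when the number set was the block (1.55e-05).

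Markers of cell identity differed between the A375 branches alongside TNFRSF11B. Of 5 melanocyte markers tested 2 fell in A375 positive cells, where 5.26% of all genes fell. They were TYR (tyrosinase) at 8.93 ± 2.22 in positive and 70.2 ± 21.9 in negative cells (limma adjusted p = 0.00150) and DCT (dopachrome tautomerase) at 4828 ± 1227 and 12394 ± 4541 (0.0312). Only its negative libraries brought TYR above the mean of 10 required of a tested gene. DCT lost its call without either of positive replicates 1 and 2 or of negative replicates 2 and 3 (adjusted p 0.115 to 0.124). The DCT log2 fold change of -1.31 ± 0.30 (SE) was -0.79 within the low and -1.27 within the high number set. It was -1.03 when the number set was the block, where the high set minus the low set came to 0.83 ± 0.06. Of 3 epithelial markers tested in A375 the keratin KRT18 fell (884 ± 57.9 in positive and 1077 ± 57.3 in negative cells, limma adjusted p = 0.0417) and lost its call when any one library was left out (0.0601 to 0.163). None of 4 stromal and vascular markers tested in A375 passed by limma or edgeR, 1 passed by DESeq2 and 2 had an unadjusted limma p under 0.05. The 7 measured stromal and vascular markers summed to 239 to 292 in A375 positive and 193 to 245 in A375 negative libraries, led by ACTA2. Leukocyte markers summed to 4 to 31.5 in A375 positive and 7 to 25.7 in A375 negative libraries, and none had a mean of 10. The part of these markers in the TNFRSF11B difference was not tested. In 253J no melanocyte, epithelial, stromal or leukocyte marker of the 3, 5, 3 and 1 tested passed by limma, edgeR or DESeq2, and 0 had an unadjusted limma p under 0.05.

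Around TNFRSF11B, 6 protein-coding genes with a transcription start within 1 Mb of its own were tested in A375 and 2 of them rose in positive cells, against 4.99% of all genes tested. Both lie upstream of TNFRSF11B. NOV (CCN3), a secreted matricellular protein, starts 464 kb away and averaged 526 ± 76.2 in positive and 181 ± 57.2 in negative cells (log2 fold change 1.56 ± 0.21, limma adjusted p = 0.00465). ENPP2 (autotaxin), a secreted enzyme that makes lysophosphatidic acid, starts 721 kb away and averaged 109 ± 24.6 and 33.8 ± 9.31 (1.67 ± 0.24, limma adjusted p = 0.00563). The other 4, TAF2, DSCC1, DEPTOR and EXT1, had log2 fold changes between -0.15 and 0.16, and the median of the 421 other genes tested on chromosome 8 was 0.01. In 253J, where TNFRSF11B did not pass, 2 of 7 neighbours fell in positive cells, against 0.564% of all genes. These were NOV (1881 ± 44.1 in positive and 2380 ± 102 in negative cells, -0.34 ± 0.06, limma adjusted p = 0.0284) and MAL2, a protein of apical transport in epithelia (10900 ± 512 and 14024 ± 612, -0.36 ± 0.06, limma adjusted p = 0.0319). Both 253J calls ended without any one library except negative replicate 3 (adjusted p 0.0840 to 0.171 for NOV and 0.0512 to 0.224 for MAL2).

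**Figure D4:**
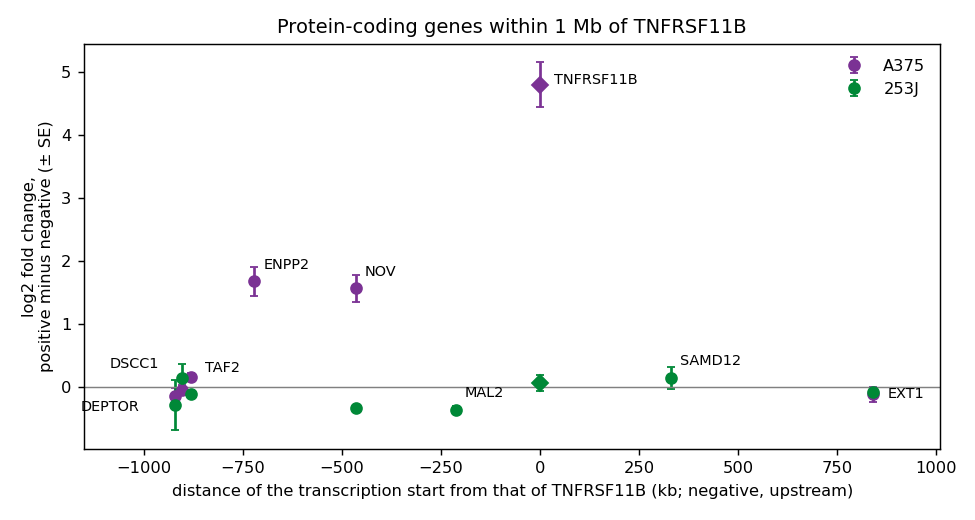
Log2 fold change of positive minus negative cells, with its standard error, of protein-coding genes within 1 Mb of TNFRSF11B (diamonds at 0) against the distance between transcription starts in kb, in A375 (purple) and 253J (green). NOV at 464 kb and ENPP2 at 721 kb upstream stand at 1.56 and 1.67 in A375, between TNFRSF11B at 4.79 and the other neighbours near 0.

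The genes whose profile was most like that of TNFRSF11B were found by the root mean square difference of log2(normalized count + 1), centred on the negative libraries of each line, over 12 libraries and among 11348 genes. The order was AF121898.3 (distance 0.366), MN1 (0.479), VCAN (0.925), SLC8A1 (0.928) and ROBO2 (1.03). AF121898.3 averaged 159 ± 46.0 in A375 positive and 4.97 ± 3.001 in A375 negative cells and was listed at 0 in every 253J library. MN1 averaged 115 ± 2.41 in A375 positive and 3.97 ± 1.70 in A375 negative cells, and 50.5 ± 1.96 in 253J positive and 42.5 ± 2.16 in 253J negative cells. VCAN, which encodes the matrix proteoglycan versican, averaged 1792 ± 208 in A375 positive and 222 ± 46.0 in A375 negative cells. Likeness was measured on the values that chose TNFRSF11B, so these are descriptions without a test.

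Upstream sequences are shown for TNFRSF21, the member that lay in opposite directions in the lines, and for TNFRSF19, which was high in A375 and low in 253J. They are the 250 bases before the transcription start in RefSeq on GRCh38.p14, 5′ to 3′ on the strand of the gene, and capitals mark the single motif match. TNFRSF19 has 2 annotated starts, and the window printed is that of the downstream one, since that of the upstream one overlaps an annotated exon. The upstream window held 49.6% G and C, 4 CpG pairs and no match to any motif searched.
TNFRSF21 (chr6:47309906-47310155, minus strand): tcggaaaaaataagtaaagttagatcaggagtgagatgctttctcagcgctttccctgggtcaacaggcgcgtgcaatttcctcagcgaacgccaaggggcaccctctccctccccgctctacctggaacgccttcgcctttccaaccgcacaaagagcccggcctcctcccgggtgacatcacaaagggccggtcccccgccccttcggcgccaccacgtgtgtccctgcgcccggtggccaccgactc
TNFRSF19 (chr13:23579110-23579359, plus strand): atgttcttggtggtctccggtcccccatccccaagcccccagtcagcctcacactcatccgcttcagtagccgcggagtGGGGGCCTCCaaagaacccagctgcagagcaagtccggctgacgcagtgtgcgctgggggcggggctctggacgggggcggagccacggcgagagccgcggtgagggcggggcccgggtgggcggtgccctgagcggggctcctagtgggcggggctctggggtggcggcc
The TNFRSF21 window held 62% G and C and 20 CpG pairs, and the TNFRSF19 window 72.4% and 20, against medians of 58% and 11 over all RefSeq windows. Both strands of the whole window were searched for the NF-kB motif, the AP-1 motif TGANTCA, the TATA motif TATAAA, the CRE motif TGACGTCA, the TEAD motif GGAATG and the ETS motif CCGGAAGT. The NF-kB match of TNFRSF19, in capitals, starts 171 bases before the transcription start, and 9.95% of all 35097 windows hold such a match. The other motifs had no match in either sequence, and 6.57%, 10.7%, 1.65%, 11.9% and 3.42% of windows hold them in the order listed.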

How the data were processed

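Poly(A) RNA was sequenced from 12 libraries, 3 for each branch of each line. The deposited unit is a signal: reads per gene over the size factor of the library, rounded to 0.1, in 1 table of 19423 genes per line, with the alignment to GRCh38 and the counting done by the authors with cutadapt, STAR 2.4.2a, HTSeq and DESeq2, per the submitters' processing notes. The annotation and the strand setting of the counting were not given in the sources used here. Whole reads were recovered from the step between low values (100% whole within 0.055), giving 14576506 to 17916519 reads per library.

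Each line was fitted alone. Genes whose mean reached 10 entered limma-trend as log2(value + 1), with no covariate, under R 4.3.3 and limma 3.58.1. P-values were adjusted over all of them by Benjamini-Hochberg and called at 0.05. The plan named edgeR for the case of raw counts. The values are scaled, so limma was the main test, and edgeR 4.0.16 and DESeq2 1.42.0 on the recovered reads were alternatives. The difference between lines was a contrast in a limma fit of all 12 libraries. TPM values divide recovered reads by the union of GENCODE 29 exons, which matched 99.6% of the gene identifiers. The length of the longest transcript was an alternative chosen after seeing the data. The limma step was tested on simulated data.

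Members and gene lists were chosen with earlier results of these data known. Named genes are the 7 members, a set of near relatives, ligands and feedback genes named whatever their test, up to 4 called genes with the smallest p per list and line, and the 5 genes most like TNFRSF11B. NOV, ENPP2 and MAL2 were named after their values were seen. Samples with the same replicate number deviated together in 253J (correlations of 0.286, 0.187 and 0.496 between branches), so the number was taken to pair them there, from the data and not from a label. Positive 1 with negative 2 (0.21) and positive 2 with negative 1 (0.165) correlated about as well, so in 253J replicates 1 and 2 pair by number set as much as by number, and values for both blocks are given. In A375 the numbers did not pair the samples (0.415, -0.272 and 0.398).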

Additional observations from a re-analysis of the deposited data

Results flagged for a closer look

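Among the 7 receptor genes, TNFRSF21 had every positive library below every negative one in A375 and every positive library above every negative one in 253J. The A375 log2 fold change minus that of 253J was -0.67, and this difference was not tested because the A375 values had a part in choosing the gene.

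For 8 further genes the A375 log2 fold change also differed from that of 253J. They are listed because the limma contrast between lines passed for them at an adjusted p of 0.05. TNFSF9, TRAF7 and BCL2 lost that pass when some single libraries were left out. All 8 had first been named because they had been called in one line, 7 of them in A375 and RUNX2 in 253J. A pass on the same values is no independent evidence, so the differences are given as values. Among ligands and adaptors the differences, A375 minus 253J, were 0.55 for TNFSF9, 0.85 for CD70, 0.72 for MAP3K5 and 0.32 for TRAF7. They were -0.49 for BCL2, -0.89 for IER3, -0.68 for TNFAIP2 and 1.396 for RUNX2. In 7 of the 8, all but TNFSF9, the fold changes had opposite signs in the lines, as in IER3 at -0.44 in A375 and 0.45 in 253J. Choosing genes by their difference favours opposite signs. By limma without a block, only RUNX2 of the 7 passed in 253J, and it did not pass in A375. The 253J values were -0.057 ± 0.072 (SE) for MAP3K5, 0.082 ± 0.085 for BCL2, 0.093 ± 0.069 for TNFAIP2 and -0.096 ± 0.060 for TRAF7. Their limma adjusted p ran from 0.538 to 0.784, so these signs in 253J are uncertain.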

How the results depend on the processing

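The number of genes called in A375, 1447, was 2429 with a replicate block, 4523 with the number set as a block, 53 with same-set libraries averaged, 2906 within the low and 2335 within the high set, and 487 to 1881 when each library was left out. In 253J it was 155, against 58 with no filter on low values, 1991 with a replicate block, 2645 with the number set as a block, 21 with same-set libraries averaged, 301 by DESeq2, 2977 within the low set, and 40 to 369 when each library was left out. The high set of 253J has 1 library per branch and gave values with no test. The difference between lines had 770 calls, against 2032 with a replicate block, 3504 with the number set as a block, 85 with averaging, and 444 to 916 when each library was left out. In A375, where the numbers do not pair the samples, the replicate block is given for these counts only.

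For the 7 receptors in A375, TNFRSF11B was 3.66 with a pseudocount of 5, TNFRSF21 was -0.30 within the low and -0.36 within the high set, and TNFRSF10A was -1.95 within the low set. In 253J, with no pass in the fit without a block, TNFRSF12A passed with a replicate block (0.34), the set block (0.34) and within the low set (0.37), as did TNFRSF21 (0.34, 0.34 and 0.29) and TNFRSF10D (0.17 each), while TNFRSF1A passed with the set block (-0.12) and within the low set (-0.15). With same-set libraries averaged none of these 4 passed (limma adjusted p 0.787 to 0.941). TNFRSF1A in A375, at 0.03, was -0.0094 with the set block or averaging, -0.034 within the low set and -0.015 to 0.084 when each library was left out. Leaving out each library gave -0.043 to 0.207 for TNFRSF11B and -0.022 to 0.166 for TNFRSF10A in 253J. The cause of each shift was not tested.

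The other log2 fold changes that turned their sign belonged to genes that had not passed. In A375 TNFRSF10C was 0.020, TNFRSF14 0.095 and TNFAIP3 0.49 within the low set, LTBR was -0.020 within the high set, TNFAIP3 was 0.11 with the set block or averaging, and NFKBIA was -0.029 with the set block or averaging, -0.049 within the low and -0.0091 within the high set. In 253J TNFRSF10C was 0.043 and BIRC3 0.10 within the low set, and FAS was -0.00404, LTBR -0.00747 and TNFAIP3 -0.00224 with averaging. When each library was left out, the A375 values ran from -0.62 to 0.051 for TNFAIP3 and -0.032 to 0.067 for NFKBIA, and the 253J values from -0.12 to 0.15 for FAS, -0.028 to 0.072 for LTBR, -0.011 to 0.13 for CD40, -0.0091 to 0.47 for RELT, -0.029 to 0.29 for TNFAIP3, -0.23 to 0.065 for BIRC3, -0.074 to 0.31 for NFKBIA and -0.083 to 0.020 for ADAM10.

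By the length of the longest transcript, chosen after seeing the data, the TPM of TNFRSF1A in A375 positive cells was 152 and that of TNFRSF12A 237. At this depth A375 levels of TNFRSF10D and TNFSF10, at a few reads per library, were too low for a difference between branches to be detectable.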
